A study of Mus musculus with 6 samples.

Results

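NF-kappaB transcription factors and the inhibitors that restrain them were followed in AML-12 cells, a mouse hepatocyte line, with and without a hairpin against MnSOD. The genes were chosen by symbol: Rela, Rel, Relb, Nfkb1 and Nfkb2 for the subunits, and Nfkbia, Nfkbib, Nfkbie, Nfkbiz and Tnfaip3 for the inhibitors. Of these 10 genes, 9 had a probe set annotated with that single symbol, 1 probe set each, among 19938 genes with 1 symbol. Nfkb1 was not analysed here. The siMnSOD cells carried a retroviral pSUPER.retro.puro hairpin against MnSOD, designed for mild silencing, and the siScramble cells carried the same vector with a hairpin that recognises no gene. All cells of both groups had been transduced with retrovirus and selected with puromycin, and they received no further treatment. Each group had 3 Affymetrix Mouse Gene 1.0 ST arrays titled as biological replicates, and the design text speaks of different frozen batches of cells. Whether replicates were transduced separately is not stated in the sources used here. The p-values therefore measure only the spread among these samples, which may be technical.

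NF-kappaB proteins are dimers of subunits that share a Rel homology domain. In resting cells I-kappaB proteins hold the dimers in the cytoplasm, and inflammatory signals activate kinases that mark the I-kappaB proteins for destruction, which frees the dimers to enter the nucleus. Several of the genes that NF-kappaB switches on encode its own subunits and inhibitors, so the pathway feeds back on itself. In liver the pathway controls acute phase proteins, chemokines and the survival of hepatocytes exposed to tumour necrosis factor.

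All 9 genes read lower in siMnSOD replicates 1, 2 and 3 than in siScramble replicates 1 and 2, as did 18.1% of all genes. For 7 of the 9, siScramble replicate 3 lay within or below the knockdown range. In bulk RNA, fewer expressing cells and less RNA per cell cannot be told apart. With all 6 arrays only Nfkbiz, an atypical nuclear I-kappaB, passed the test, with a log2 fold change of −1.03 (SE 0.17, n = 3 arrays a group, adjusted p = 0.026 in limma). Over all genes, 1.58% were called lower and 2.17% higher in that fit (316 and 432 genes, or 140 and 365 after arrays were centred on their medians). The median log2 fold change of the 9 genes was −0.56, against 0.01 over all genes. Without siScramble replicate 3 all 9 genes were called lower, with a median of −0.92, while 5.61% of all genes were called lower and 5.61% higher. That fit was singled out after the values were seen. The array left out was the lowest control for all 9 genes, so its removal lowered every fold change. Adjusted p-values from that fit are therefore descriptive only. Leaving out any other single array gave 0 or 1 called genes of the 9. Those fits called 77 to 558 of all genes, against 748 with all 6 arrays.

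The third arrays stood apart in both groups. Across probe sets, siScramble replicate 3 correlated at a Pearson r of 0.976 with each of the other controls and at 0.979 with siMnSOD replicate 3, while controls 1 and 2 correlated with each other at 0.993. In limma's array weights siScramble replicate 3 received 0.16, the smallest of the 6, and siMnSOD replicate 3 received 0.25, against 1.35 to 2.84 for the other 4 arrays. The Sod2 level of siScramble replicate 3 went with its label. Sod2, which encodes MnSOD, read 98.8, 121 and 52.3 intensity units in siMnSOD replicates 1, 2 and 3, and 248, 254 and 293 in siScramble replicates 1, 2 and 3. The groups did not overlap, and Sod2 fell by 1.63 on the log2 scale (SE 0.30, adjusted p = 0.037 in limma). That call was lost without siMnSOD replicate 1 or 2 or siScramble replicate 1 or 2 (highest adjusted p 0.13), with arrays centred on their medians (0.069) and with all probe sets tested (0.063). A level of 19.4 intensity units, the 95th percentile of olfactory receptor genes, served as a guide to background. Of 12 measured hepatocyte markers 9 lay above it, led by Krt8, Krt18 and Trf, but the defining secreted products Alb, Ttr and Afp did not. Hnf4a, a master regulator gene of hepatocytes and the only called marker, read 529.7, 581 and 461 in the knockdown and 269, 258 and 210.4 in the controls. It rose by 1.09 (SE 0.14, adjusted p = 0.013 in limma), a call lost without siMnSOD replicate 1 or 2 or siScramble replicate 2 (highest adjusted p 0.080). The summed intensity of these markers was 15019 to 17120 in the knockdown and 10752 to 14353 in the controls, lowest in siScramble replicate 3. Its part in the results was not tested. The sum mainly followed Krt8 (4376 to 8926 over the 6 arrays) and Krt18 (3713 to 6069). Fgb, Apoa1 and Apoa2 lay only slightly above the guide, at 20.0 to 29.6. Of macrophage and leukocyte markers 4 of 10 lay above the guide, namely Cd14 (163 to 233 intensity units over the 6 arrays), Csf1r, Cd68 and Cd3e, while Ptprc, Adgre1 and Itgam lay below it. No marker of this list was called, none had an unadjusted p under 0.05 (0 of 10), and the sum of the list was 353 to 393 in the knockdown and 334 to 370 in the controls. Endothelial markers (3 of 8 above the guide) summed to 134 to 181 and 138 to 181, and stellate cell and fibroblast markers (7 of 9) to 234 to 295 and 245 to 290.

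Start-site sequences were examined because several of these genes are known to be switched on by NF-kappaB itself. RefSeq promoter windows of assembly GRCm38.p6, from 250 bases before to 50 bases after each start, were listed for 7 of the 9 genes, Relb and Nfkbiz being the others. The NF-kappaB consensus of 10 bases was searched on both strands. It occurred in at least 1 window of 5 of the 7 genes, and in 5.14% of all 27025 genes in the promoter table. The windows below lie before the first listed start of Rel, Nfkb2, Nfkbia, Nfkbie and Tnfaip3, written in the direction of the gene, with the match in capitals. Matches on the 2 strands that overlapped were joined to 11 capitals in Rel and Nfkb2.
Rel: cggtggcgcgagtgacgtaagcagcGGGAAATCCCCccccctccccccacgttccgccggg
Nfkb2: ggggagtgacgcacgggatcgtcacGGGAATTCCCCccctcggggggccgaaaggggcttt
Nfkbia: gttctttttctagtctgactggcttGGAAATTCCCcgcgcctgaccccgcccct
Nfkbie: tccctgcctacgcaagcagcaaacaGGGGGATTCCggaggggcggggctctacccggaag
Tnfaip3, farther site: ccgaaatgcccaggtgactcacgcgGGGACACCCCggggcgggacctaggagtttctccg
Tnfaip3, nearer site: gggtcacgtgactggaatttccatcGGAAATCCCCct
The match began 92 bases before the start in Rel (chr11:23771026-23771086, minus strand), 39 in Nfkb2 (chr19:46304673-46304733, plus strand) and 29 in Nfkbia (chr12:55492648-55492701, minus strand). It began 106 bases before the start in Nfkbie (chr17:45555569-45555628, plus strand). In Tnfaip3 the matches began 125 and 12 bases before it (chr10:19015501-19015560 and chr10:19015411-19015447, minus strand). Nfkb2 held further matches, the nearest of them 11 bases before the same start. No match lay in the listed windows of Rela and Nfkbib. Without siScramble replicate 3 these 2 genes each fell by 0.72 on the log2 scale, and the 5 genes with a match by 0.53 to 1.35. A match is a stretch of letters and does not show binding in these cells.

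**Figure D1:**
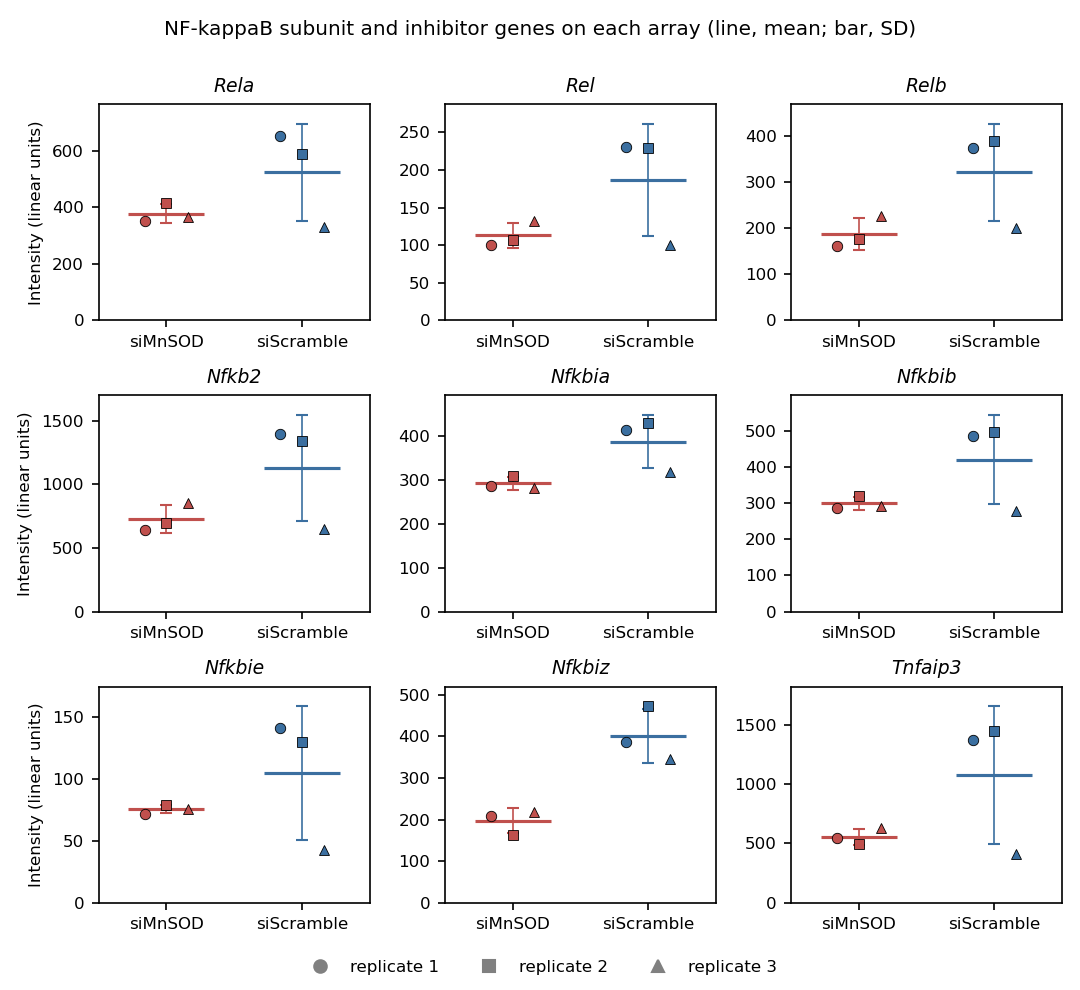
Normalized intensity (linear units, axis from 0) of the 9 genes on each array, 1 panel a gene; circles, squares and triangles are replicates 1, 2 and 3, horizontal lines are group means and bars are SDs of 3 arrays. The siScramble triangle lies below the other siScramble points in all 9 panels, and only for Nfkbia and Nfkbiz does it stay above every siMnSOD point.

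The subunit genes were taken first. Rela encodes the main activating subunit. It read 352, 416 and 367 intensity units in siMnSOD replicates 1, 2 and 3, and 654, 589 and 331 in siScramble replicates 1, 2 and 3. The third control was thus the lowest of all 6 arrays, and the groups overlapped. The log2 fold change was −0.42 (SE 0.26, adjusted p = 0.58 in limma) with all arrays and −0.72 (SE 0.12, adjusted p = 0.016) without siScramble replicate 3. Rel encodes c-Rel, a subunit best known from lymphocytes. It read 101, 107 and 132 in the knockdown and 230.4, 229 and 100.3 in the controls, and again the third control was the lowest array. Its log2 fold change was −0.64 (SE 0.33, adjusted p = 0.45 in limma), and −1.03 (SE 0.14, adjusted p = 0.0081) without that control.

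Relb and Nfkb2 encode the partners of the non-canonical branch, which lymphotoxin and related receptors activate through the kinase NIK. Relb read 161, 176 and 227 intensity units in the knockdown and 375, 390.0 and 200.4 in the controls. The third control lay inside the knockdown range. Its log2 fold change of −0.73 (SE 0.28, adjusted p = 0.25 in limma) became −1.04 (SE 0.16, adjusted p = 0.013) without siScramble replicate 3. Nfkb2 encodes a precursor that is itself inhibitory until it is processed. It read 637, 693 and 849.9 in the knockdown and 1396, 1337 and 647 in the controls, so the third control lay between knockdown replicates 1 and 2. Its log2 fold change was −0.56 (SE 0.30, adjusted p = 0.48 in limma), and −0.92 (SE 0.14, adjusted p = 0.013) without that control. In both genes siMnSOD replicate 3 was the highest knockdown array.

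The classical I-kappaB genes followed. Nfkbia encodes I-kappaB alpha, the inhibitor that is destroyed and then resynthesised within a single round of signalling. It read 286, 309.7 and 283 intensity units in the knockdown and 414, 429 and 317 in the controls. The groups did not overlap, although the third control exceeded the highest knockdown array only slightly. The log2 fold change was −0.39 (SE 0.14, adjusted p = 0.22 in limma), and −0.53 (SE 0.10, adjusted p = 0.024) without siScramble replicate 3, the smallest of the 9 in that fit. Nfkbib encodes I-kappaB beta, a slower acting inhibitor. It read 286, 319 and 292 in the knockdown and 485, 496 and 279 in the controls, with the third control below every knockdown array. Its log2 fold change was −0.44 (SE 0.23, adjusted p = 0.45 in limma) and −0.72 (SE 0.10, adjusted p = 0.0097) without that control.

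Nfkbie encodes I-kappaB epsilon, another inhibitor induced by NF-kappaB. It read 72.0, 78.7 and 75.6 intensity units in the knockdown and 141, 129.9 and 42.9 in the controls. The knockdown arrays agreed closely with an SD of 0.06 on the log2 scale, against 0.96 in the controls. The log2 fold change of −0.29 (SE 0.43, adjusted p = 0.97 in limma) became −0.85 (SE 0.10, adjusted p = 0.0057) without siScramble replicate 3, and 0.01 (adjusted p = 1.00) without siScramble replicate 1. Tnfaip3 encodes a ubiquitin-editing enzyme that ends signalling from tumour necrosis factor and Toll-like receptors. It read 544, 496 and 628 in the knockdown and 1372, 1448 and 409 in the controls, and the third control was the lowest array. With all arrays its log2 fold change was −0.75 (SE 0.47, adjusted p = 0.59 in limma). Without siScramble replicate 3 it was −1.35 (SE 0.13, adjusted p = 0.0029), the largest of the 9.

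Nfkbiz was the only gene of the 9 called with all 6 arrays. Its product acts in the nucleus, where it helps NF-kappaB to switch on a secondary set of genes that includes Lcn2. It read 209, 163 and 219 intensity units in the knockdown (197 ± 29.8, SD, n = 3) and 386, 472 and 346 in the controls (401 ± 64.4, SD, n = 3). The groups did not overlap, and its geometric mean in the knockdown was 49.1% of that in the controls. The third control was the lowest control here too, but it exceeded the highest knockdown array by far more than for Nfkbia. The call of Nfkbiz had an adjusted p of 0.043 with the replicate number as a block, and 3.12% of all genes were called lower in that fit. It was lost without siMnSOD replicate 1 or 2 or siScramble replicate 1 or 2 (adjusted p 0.084, 0.11, 0.10 and 0.10 in limma) and when arrays were centred on their medians (0.053).

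**Figure D2:**
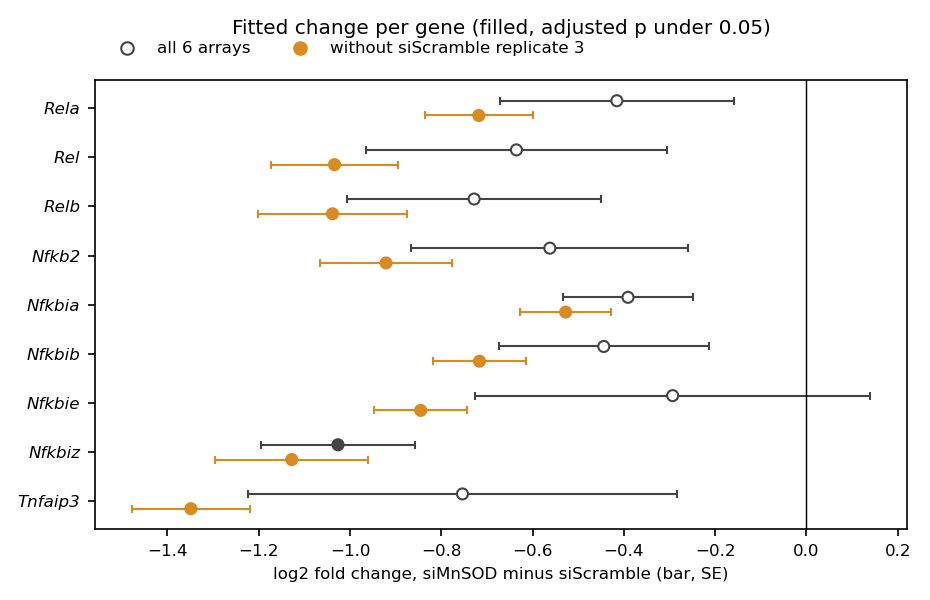
Fitted log2 fold change (siMnSOD minus siScramble, x axis) of the 9 genes with its SE, in grey with all 6 arrays and in orange without siScramble replicate 3; filled points have an adjusted p under 0.05. Only Nfkbiz is filled with all arrays (−1.03), and all 9 are filled without the third control, from −0.53 for Nfkbia to −1.35 for Tnfaip3. The orange fit was singled out after the values were seen.

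Counted over the 9 genes, the position of the third control varied. It lay below every knockdown array for Rela, Rel, Nfkbib, Nfkbie and Tnfaip3, inside the knockdown range for Relb and Nfkb2, and above it for Nfkbia and Nfkbiz. It was below the other 2 controls for all 9 genes, and for 33.7% of all genes. For 7 of the 9, all but Nfkbia and Nfkbiz, it was at least 0.5 below their mean on the log2 scale, and so were 10.2% of all genes. The groups did not overlap, with the knockdown lower, for 2 of the 9 genes and for 9.73% of all genes. Every knockdown array was below controls 1 and 2 for all 9 genes and for 18.1% of all genes. The control SD exceeded the knockdown SD for 8 of the 9, all but Nfkbiz, where both were 0.23 on the log2 scale. The medians over all genes were 0.18 in the controls and 0.16 in the knockdown. For the 9 genes the knockdown SDs ran from 0.06 to 0.26, on both sides of 0.16, and the control SDs from 0.23 to 1.03.

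Within replicate numbers the same split appeared. The median difference of the 9 genes was −0.97 and −0.95 on the log2 scale within numbers 1 and 2, and 0.18 within number 3. Over all genes the medians were 0.02, 0.00 and 0.01. Sod2 differed by −1.33, −1.07 and −2.49 within numbers 1, 2 and 3, so its loss was largest within number 3. How this relates to the 9 genes was not tested. For 7 of the 9 genes the knockdown was lower within numbers 1 and 2 and higher within number 3, a pattern that 11.9% of all genes had. The positive differences within number 3 ran from 0.07 for Nfkbib to 0.82 for Nfkbie. Nfkbia and Nfkbiz were lower within all 3 numbers, as were 19.8% of all genes. For Nfkbiz the differences were −0.88, −1.53 and −0.66, and for Nfkbia −0.53, −0.47 and −0.17. With replicate numbers 1 and 2 alone, an alternative chosen after the data were seen, all 9 genes were called lower, beside 9.69% of all genes. Array weights called all 9 lower too, beside 11% of all genes. The weights were smallest for the third arrays (siScramble 0.16, siMnSOD 0.25), so that fit is no separate check of the fit with numbers 1 and 2 alone.

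**Figure D3:**
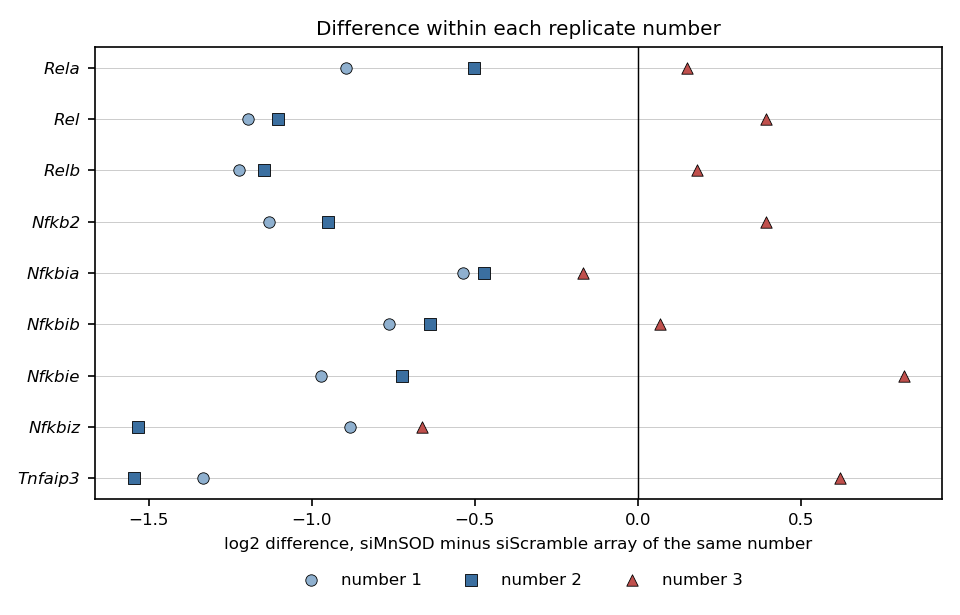
Log2 difference (x axis) between the siMnSOD and siScramble arrays of the same replicate number, for each of the 9 genes; circles, squares and triangles are numbers 1, 2 and 3. Numbers 1 and 2 are negative for every gene, while number 3 is positive for 7 genes and negative for Nfkbia (−0.17) and Nfkbiz (−0.66).

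The 9 profiles resembled each other over the 6 arrays, as a description of arrays that share these groups and the third control. Among 12897 genes above the background guide, the gene most like Rel was Nfkb2 and the reverse (Pearson r = 0.999 on the log2 scale, n = 6 arrays). The nearest gene to Nfkbia was Csf3, a granulocyte growth factor gene, with r = 0.998. Tnfaip3 was nearest to Stard13 (0.999), Relb to Nomo1 (0.998), Nfkbib to Uspl1 (0.998), Nfkbie to Map2k3 (0.997) and Rela to Reps1 (0.994). Nfkbiz was nearest to Serp1 (0.993) and least like the other 8 genes, with a median r of 0.71, against 0.89 to 0.96 for each of the others. Each nearest gene was picked as the highest r over 6 arrays, and shared regulation was not tested.

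Upstream of the factors, receptors signal through adaptors and ubiquitin ligases to the I-kappaB kinases. Of 28 kinases, ubiquitin ligases and adaptors 24 were measured, and none passed in limma in either direction with all arrays. An unadjusted p under 0.05 was found for 5 of the 24, and for 3324 of all 19938 genes. Their median log2 fold change was −0.08. Smallest in p were the receptor adaptor genes Tradd (0.54, SE 0.12, adjusted p = 0.067) and Ticam1 (−0.23, SE 0.09, adjusted p = 0.27), and Tab2 (−0.37, SE 0.12, adjusted p = 0.19), which activates the kinase TAK1. Rbck1, a subunit of the linear ubiquitin ligase, had 0.25 (SE 0.10, adjusted p = 0.28). Leaving out the third control, Tab2, Tab3, Ikbke, Traf1 and Birc3 were called lower. Ikbkg, the scaffold of the I-kappaB kinase complex, was called higher, by 0.48 (adjusted p = 0.042 in limma). In that fit 5.61% of all genes were called in each direction. The kinase and adaptor genes called there were named after their values were seen. Traf1 and Birc3 are also listed among the targets below, and Traf1 had a mean below the background guide.

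Of 28 ligands and receptors 24 were measured and 15 of these lay above the background guide. With all arrays 1 was called higher and none lower, beside 2.17% and 1.58% of all genes. Of the 24, 11 had a negative log2 fold change. The called gene, Il33, an interleukin of the IL-1 family, rose by 0.94 (SE 0.14, adjusted p = 0.020 in limma). It read 616, 640.3 and 800.4 intensity units in the knockdown and 362, 386 and 317 in the controls, so the groups did not overlap and the third control was the lowest array. Il1rn, the interleukin-1 receptor antagonist gene, read 63.9, 50.0 and 59.6 in the knockdown and 194, 198 and 74.8 in the controls, with a log2 fold change of −1.30 (SE 0.37, adjusted p = 0.12 in limma). Tlr2, a receptor for bacterial lipoproteins, had −0.42 (SE 0.12, adjusted p = 0.11). Tlr1, its partner, had 0.30 (SE 0.10, adjusted p = 0.18) and lay below the guide. The list median was 0.01. In the fit without the third control Il33 stayed called higher, and Il1rn (−1.77), Tlr2 (−0.50) and Tnfrsf12a (−0.97) were called lower. That fit called 5.61% of all genes in each direction. The call of Il33 was lost without siMnSOD replicate 1 or 2 or siScramble replicate 1 or 2 (highest adjusted p 0.097).

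Other brakes on the pathway moved in both directions. All 22 listed genes were measured, and the median log2 fold change was −0.20. With all arrays 3 were called lower and 1 higher, beside 1.58% and 2.17% of all genes. Rnf11, a partner of Tnfaip3 in its ubiquitin-editing complex, fell by 1.09 (SE 0.18, adjusted p = 0.027 in limma). Its arrays read 332, 313 and 490.1 intensity units in the knockdown and 785, 774 and 809 in the controls, and here the third control was the highest array. Nkiras1, a Ras-like protein that binds I-kappaB proteins, fell by 0.86 (SE 0.15, adjusted p = 0.031). Zc3h12a, which encodes an RNase that degrades inflammatory transcripts, fell by 0.73 (SE 0.13, adjusted p = 0.036). Traip, a ubiquitin ligase gene first linked to TRAF proteins that also acts in DNA replication, rose by 0.73 (SE 0.10, adjusted p = 0.016). When the third control was left out, the deubiquitinase gene Cyld and Tnip1, a Tnfaip3-binding protein gene, fell as well, by 0.68 and 0.52. In that fit 5.61% of all genes were called lower. Each of the 4 calls was lost without siMnSOD replicate 1 or 2 or siScramble replicate 1 or 2, and those of Nkiras1 and Zc3h12a also without siMnSOD replicate 3 (highest adjusted p 0.15). With all probe sets tested Nkiras1 (0.055) and Zc3h12a (0.064) were not called, and with centred arrays Zc3h12a was not (0.13).

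Known targets of NF-kappaB included chemokine, cytokine, acute phase and survival genes. Of 40 listed genes 38 were measured, with a median log2 fold change of −0.42. With all arrays 10 were called lower and none higher, beside 1.58% and 2.17% of all genes. Leaving out siScramble replicate 3 raised the lower calls to 20, again with none higher, beside 5.61% of all genes in each direction. The list was chosen with earlier results of these data known, so these counts are descriptive. Sod2, a target as well, was left out because the hairpin acts on it. The 4 targets of smallest p were the acute phase gene Saa3 (−3.42, SE 0.13, adjusted p = 0.00082 in limma), the collagenase gene Mmp13 (−2.46, SE 0.20), Vegfa, an angiogenic growth factor gene (−1.69, SE 0.17), and the chemokine gene Ccl7 (−1.04, SE 0.11). Also called, and named after their values were seen, were Ier3, Lcn2, Cxcl2, Ptgs2, Cxcl5 and Myc, from −0.62 for Cxcl5 to −3.46 for Lcn2. Only Saa3 and Mmp13 were called whichever array was left out. Ccl7, Lcn2 and Vegfa lost the call without siMnSOD replicate 2, and Ier3 without siMnSOD replicate 1 or 2. Cxcl2, Cxcl5, Ptgs2 and Myc lost it without any 1 of siMnSOD replicates 1 and 2 and siScramble replicates 1 and 2, and Myc also without siMnSOD replicate 3 (highest adjusted p 0.13). With centred arrays 8 targets were called, Cxcl5 (adjusted p 0.10) and Myc (0.085) not among them, and with all probe sets tested 9 were, without Myc (0.052).

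The targets differed in where the third control lay. Saa3 read 51.4, 59.8 and 66.1 intensity units in the knockdown and 640.5, 676 and 581 in the controls, so all controls stood far above the knockdown. Lcn2, a secreted iron-chelating defence protein gene, read 224, 251 and 689 against 3858, 3761 and 3535. Ier3, an early response gene, read 305, 331 and 322 against 594, 606 and 723, with the third control highest. Ccl20 and Ccl2, chemokine genes, instead resembled the subunits. Ccl20 read 865, 869 and 587 in the knockdown and 2705, 2936 and 422 in the controls. Ccl2 read 1457, 1234 and 1308 against 2795, 2939 and 1012, with the third control the lowest array in both genes. Csf2, a myeloid growth factor gene, lay between these patterns at 57.1, 61.7 and 61.2 against 375, 416 and 109, and had −2.10 (SE 0.48, adjusted p = 0.069 in limma). Cflar, an inhibitor of caspase activation, had −0.58 (adjusted p = 0.075 in limma, or 0.040 with the replicate block). Apart from the 4 of smallest p, the targets in this paragraph were chosen after their values were seen. Of the 38 targets 18 were lower within all 3 replicate numbers, beside 19.8% of all genes. Another 11 were lower within numbers 1 and 2 and higher within number 3, beside 11.9% of all genes. The corresponding counts for the 9 subunit and inhibitor genes were 2 and 7, and the difference between the lists was not tested.

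**Figure D4:**
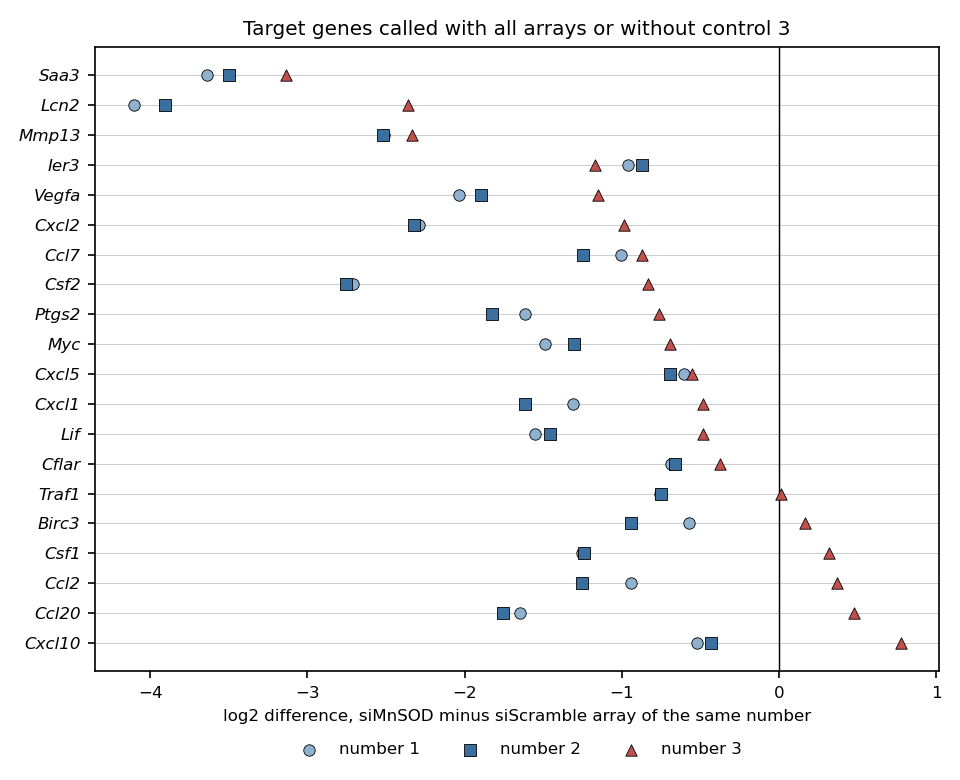
Log2 difference (x axis) between siMnSOD and siScramble arrays of the same replicate number for the 20 target genes called without siScramble replicate 3, which include the 10 called with all arrays, ordered by the difference within number 3; circles, squares and triangles are numbers 1, 2 and 3. Number 3 runs from −3.13 for Saa3 to 0.77 for Cxcl10 and is positive for the lowest 6 genes in the plot. Numbers 1 and 2 are negative for all 20 genes, which largely follows from choosing genes called lower against siScramble replicates 1 and 2.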

How the data were processed

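The authors deposited 1 normalized intensity per probe set and array on a linear scale (35557 probe sets). Per the submitters' processing notes RMA was used, but the series' design text names MAS5 scaling; tool versions and the background correction were not given in the sources used here. Symbols came from GEO's platform annotation, updated through Entrez identifiers (21698 matches; 21789 probe sets had 1 symbol, 1621 several, 12147 none). The brightest probe set stood for a gene. Log2 intensities of 21559 rows, unnamed probe sets with several symbols included, entered linear models (lmFit and eBayes of limma 3.58.1, R 4.3.3), siMnSOD minus siScramble, with Benjamini-Hochberg adjustment over all rows and a threshold of 0.05. No low-value filter was used; all 9 genes lay above the background guide. The number of arrays limits the precision. Scripts were tested on simulated data.

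The genes and lists were chosen with earlier results of these data known. Named are all members, Sod2, up to 4 genes of each list by smallest p and every called gene where a list had 5 or fewer, and the gene most like each member; exceptions are stated. Deviations of same-numbered arrays from their group means correlated at 0.30, 0.29 and 0.56, all over 0.1. The numbers in the titles were therefore taken to pair the arrays. The main fit ignored this pairing, which only the replicate block and the differences within numbers used. The fit without siScramble replicate 3 kept siMnSOD replicate 3. Arrays 1 and 2 correlated more across numbers (0.47 and 0.41), so the pairing rests mainly on number 3; what a number marks is not stated. Alternatives were a replicate block, centring, quantile normalization, the mean of probe sets, all probe sets, brighter rows only, a trended robust prior, array weights and leaving out each array.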

Additional observations from a re-analysis of the deposited data

How the results depend on the processing

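With 3 arrays a group, the count of called members depended on which arrays were used. It was 1 with all arrays and ran from 0 to 9 when each array was left out in turn: 9 without siScramble replicate 3, 1 without siMnSOD replicate 3 and 0 without any 1 of the other 4. It was 0 with centred arrays, 9 with array weights and 9 with replicate numbers 1 and 2 only. The median of the members stayed negative in every fit, from −0.37 to −0.92 with each array left out. Of the 9 genes and Sod2 only Nfkbie changed sign in any fit, with each array left out giving −0.85 (without siScramble replicate 3) to 0.013 (without siScramble replicate 1). Leaving out each array gave 0 to 6 called kinases and adaptors, 0 to 4 receptors and ligands, 0 to 6 other inhibitors, 2 to 20 targets and 77 to 2238 genes in all. Array weights gave 11, 5, 8, 24 and 4674, and replicate numbers 1 and 2 only gave 9, 4, 7, 24 and 4275. Quantile normalization called 1 kinase or adaptor gene. With all probe sets tested 2 other inhibitors and 432 genes were called. With the replicate block 1424 genes were called, and the call of no member changed. The cause of these changes was not tested.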
